A study of Danio rerio with 6 samples.

Results

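The genes described here are 10 zebrafish genes of the defence against reactive oxygen species and reactive chemicals: the sensor genes keap1a and keap1b, the glutathione synthesis genes gclc and gclm, the detoxification genes gstp1 and nqo1, the superoxide dismutases sod1 and sod2, the catalase gene cat, and the peroxiredoxin gene prdx1. They were chosen by name. Of the 10 names, 9 had a row in the table of 21217 genes tested, and prdx1 was not analysed here. Whole wild-type embryos of the Tuebingen strain were kept from about 1 hpf (hours post-fertilization) in 0, 5 or 200 μg/l pentachlorophenol (PCP), a chlorinated phenol and former pesticide, with every group in the same DMSO vehicle. The control groups were 10C and 24C, at 10 and 24 hpf. The groups 10L and 24L received 5 μg/l PCP, and 10H and 24H received 200 μg/l. A group was made up of pooled embryos and gave 1 library, so no value below has a replicate check, and every comparison is between 2 libraries rather than between 2 conditions. In pooled whole embryos, fewer cells that express a gene and less of its RNA per cell cannot be told apart.

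In the Keap1-Nrf2 system, Keap1 binds the transcription factor Nrf2 and directs it to breakdown by the proteasome. When reactive chemicals modify cysteines of Keap1, Nrf2 escapes, enters the nucleus and raises the transcription of genes such as gclc, gclm, gstp1 and nqo1. Superoxide dismutases turn superoxide into hydrogen peroxide, which catalase and peroxidases remove.

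Levels are normalized counts, that is, reads of a gene times a scaling factor of its library, and they are not corrected for gene length, so levels of different genes were not ranked, and ratios of reads between genes are compared only from library to library. FC is the normalized count of the first library over that of the second. After an FC stands its 95% Clopper-Pearson interval, computed from reads and limited to counting error. The words rose and fell are kept for a gene called, that is, when its FC was over 2-fold in either direction and its interval excluded 1 (two-sided exact binomial test, not adjusted). The reads counted in the deposited table summed to 47409208 to 59864868 per library. The labelled ages were checked with markers of the end of gastrulation and of differentiated tissues. From 10C to 24C all 8 gastrulation markers fell and all 13 tissue markers rose, and none was at 0 reads in either. The gene ef1a, the qRT-PCR reference gene of the study, had an FC of 1.87 in 24H and 1.49 in 24L. Scaling to it therefore lowers every FC of these 2 libraries over 24C. Its FC was 0.834 in 10L, 1.02 in 10H, 0.526 from 10C to 24C and 0.983 for 24H over 10C. The gene thus differed between the control ages too, so a call lost or gained with this scaling is not thereby shown to be false or true. Where scaling to ef1a reads changes the direction or the call of a printed FC of the 9 genes, it is said beside the value. For printed FC values of other antioxidant genes it is said in the same paragraph, and for the stage markers it is not given.

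Exposure coincided with lower counts of sod1, sod2 and cat RNA at 24 hpf, in a graded order of dose, and among the Nrf2 target genes gstp1 fell in 24H. The other targets, gclc, gclm and nqo1, stayed within 2-fold of control in all 4 exposed libraries, except for gclm and nqo1 in 24H when scaled to ef1a reads. A further superoxide dismutase gene outside the 9, sod3b (listed as sod3), rose at 24 hpf from 10 reads in 24C. Its FC was 2.22 (1.02 to 5.22) in 24L and 3.54 (1.76 to 7.90) in 24H. Scaled to ef1a reads these were 1.49 and 1.90, no calls. No gene of the 9 passed the call in 10L, where 6.04% of all genes did (3.65% as higher and 2.39% as lower). In 10H only cat did, and it rose, with 13.0% of all genes called (6.69% as higher and 6.33% as lower). In 24L sod1, sod2 and cat fell (7.68% of all genes called, 3.50% as higher and 4.18% as lower). In 24H gstp1, sod1, sod2 and cat fell (28.3% called, 11.9% as higher and 16.4% as lower). The other 5 genes, gclc, gclm, nqo1, keap1a and keap1b, passed the call in none of the 4 exposed libraries. The median log2 FC of the 9 genes was -0.36 with 5 μg/l and -0.30 with 200 μg/l at 10 hpf, and -0.39 and -0.56 at 24 hpf. Over all genes with at least 10 reads on average it was -0.02 and 0.02, and -0.02 and -0.03. The 10L and 10H values share the library 10C, and the 24L and 24H values share 24C.

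**Figure D1:**
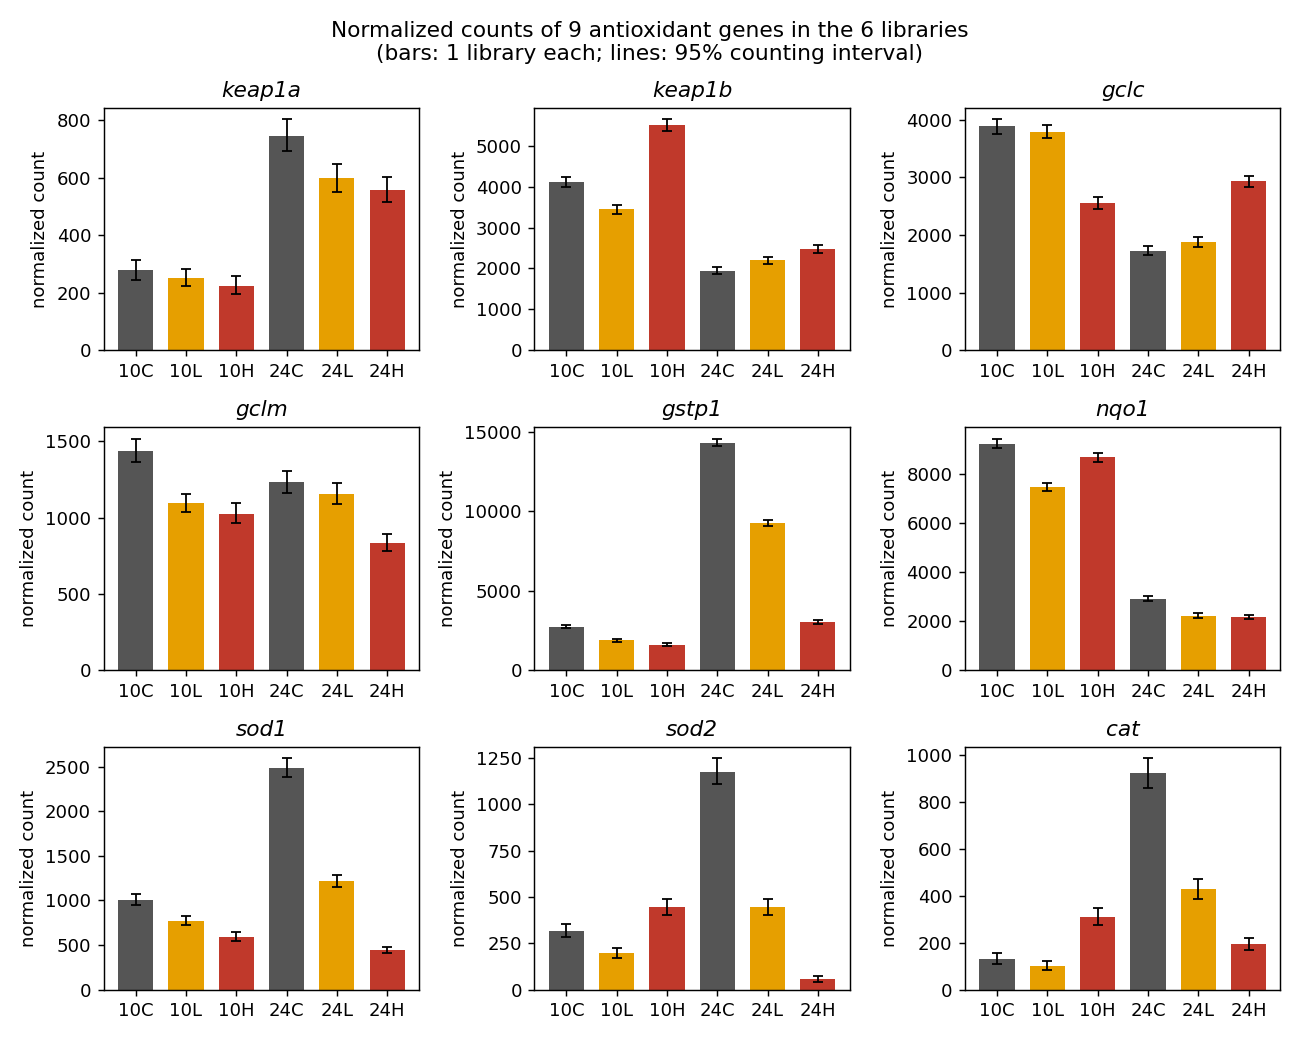
Normalized counts (vertical axes, from 0) of the 9 genes in the libraries 10C, 10L, 10H, 24C, 24L and 24H, with 1 bar per library and lines for the 95% counting interval of each value. For gstp1, sod1, sod2, cat and keap1a the 24C bar is the tallest and the 24L and 24H bars step down from it. For keap1a the 24L and 24H levels are within counting error of each other. The genes nqo1, keap1b, gclc and gclm are highest in 10 hpf libraries.

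The sensor gene keap1a (NM_182864) measured 278 normalized counts in 10C, beside 251 (10L) and 225 (10H), and 746 in 24C, beside 597 (24L) and 558 (24H). The 3 libraries of 24 hpf lay above the 3 of 10 hpf, and the exposed libraries lay below the control of their age at both ages. Its FC at 10 hpf was 0.904 (0.762 to 1.07) with 5 μg/l and 0.809 (0.672 to 0.972) with 200 μg/l, and at 24 hpf it was 0.801 (0.716 to 0.895) and 0.748 (0.671 to 0.833), none of them a call; scaled to ef1a reads, the log2 FC in 10L was 0.12 and in 24H -1.32, which would be a call. At 10 hpf the neighbours in level, 10H and 10L and then 10L and 10C, were within counting error of each other, while 10H and 10C were not. The levels of 24L and 24H were within counting error.

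The other sensor gene, keap1b (NM_001113477), had the opposite course with age. It measured 4107 normalized counts in 10C, beside 3442 (10L) and 5495 (10H), and 1948 in 24C, beside 2196.5 (24L) and 2478 (24H). The 10H library was the highest of the 6, and 24C was the lowest. Its FC at 10 hpf was 0.838 (0.802 to 0.876) with 5 μg/l and 1.34 (1.28 to 1.40) with 200 μg/l, and at 24 hpf it was 1.13 (1.06 to 1.2) and 1.27 (1.2 to 1.35), all under 2-fold. Scaled to ef1a reads the direction was the other way in 10L (log2 FC 0.01), 24L (-0.40) and 24H (-0.56).

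The 2 sensor genes can be set against each other within a library, where scaling cancels. The ratio of keap1b to keap1a reads was 14.8 in 10C (13.0 to 16.8), 13.7 in 10L (12.1 to 15.5) and 24.4 in 10H (21.3 to 28.1). It was 2.61 in 24C (2.39 to 2.86), 3.68 in 24L (3.35 to 4.04) and 4.44 in 24H (4.08 to 4.85). The ratio was higher in both 200 μg/l libraries than in the control of the same age, with intervals that do not overlap, and 5 μg/l gave a higher ratio at 24 hpf, while at 10 hpf the intervals of 10L and 10C overlap.

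Glutamate-cysteine ligase makes the first and rate-limiting step of glutathione synthesis, and gclc (NM_199277) encodes its catalytic subunit. This gene measured 3881 normalized counts in 10C, beside 3789.5 (10L) and 2553 (10H), and 1731 in 24C, beside 1873 (24L) and 2931 (24H). At 10 hpf the 200 μg/l library was the lowest of its age, and at 24 hpf it was the highest. Its FC at 10 hpf was 0.976 (0.934 to 1.02) with 5 μg/l and 0.658 (0.625 to 0.693) with 200 μg/l, and at 24 hpf it was 1.08 (1.01 to 1.16) and 1.69 (1.60 to 1.80). None was a call, and scaled to ef1a reads the direction turned in 10L (log2 FC 0.23), 24L (-0.46) and 24H (-0.14). In 10L the log2 FC was also above 0 with scaling to library totals (0.10) and to TMM factors (0.01).

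The modifier subunit of the same enzyme, gclm (NM_199845), lowers the ligase's sensitivity to feedback by glutathione. It measured 1439 normalized counts in 10C, beside 1093 (10L) and 1026 (10H), and 1233 in 24C, beside 1157 (24L) and 835 (24H). All exposed libraries lay below the control of their age, with an FC at 10 hpf of 0.760 (0.703 to 0.821) and 0.713 (0.656 to 0.775) and at 24 hpf of 0.938 (0.863 to 1.02) and 0.677 (0.621 to 0.738), in order of dose. None was a call, although in 24H scaling to ef1a reads would make it one (log2 FC -1.47). Of the 9 genes gclm varied least over the 6 libraries, with a highest value 1.72 times its lowest, and sod2 varied most, at 20.7 times.

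The genes of the 2 ligase subunits moved apart at 24 hpf under 200 μg/l PCP. The ratio of gclc to gclm reads was 1.40 in 24C (1.30 to 1.51), 1.62 in 24L (1.5 to 1.75) and 3.51 in 24H (3.27 to 3.77). At 10 hpf it was 2.70 in 10C (2.54 to 2.87), 3.47 in 10L (3.25 to 3.70) and 2.49 in 10H (2.31 to 2.68). The 24H ratio lay above that of 24C and of 10C, and its interval overlaps that of 10L. These ratios do not depend on the scaling of the libraries.

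**Figure D2:**
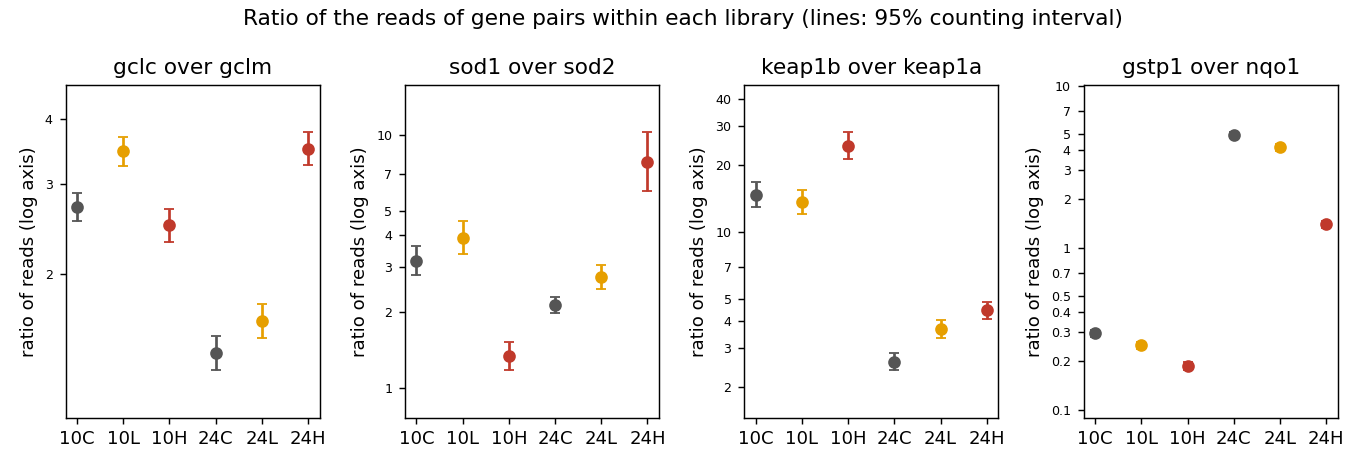
Ratio of the reads of 2 genes within a library (vertical axes, logarithmic) for gclc over gclm, sod1 over sod2, keap1b over keap1a and gstp1 over nqo1, with 1 point per library and lines for the 95% counting interval. The gclc over gclm and sod1 over sod2 points of 24H, at 3.51 and 7.79, stand above those of 24C, at 1.40 and 2.12, and the gstp1 over nqo1 point of 24H, at 1.40, stands below the 4.93 of 24C.

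The pi-class glutathione S-transferase gene gstp1 (NM_131734) encodes an enzyme that joins glutathione to reactive chemicals and in zebrafish is a known Nrf2 target. It measured 2725 normalized counts in 10C, beside 1864 (10L) and 1604 (10H), and 14319 in 24C, beside 9245 (24L) and 3024 (24H). Within each age the level was lower at 5 μg/l than in the control and lower again at 200 μg/l. Its FC was 0.684 (0.645 to 0.725) in 10L, 0.589 (0.552 to 0.627) in 10H and 0.646 (0.629 to 0.663) in 24L, which were no calls, and it fell in 24H to an FC of 0.211 (0.203 to 0.219). In 24L scaling to ef1a reads would make it a call (log2 FC -1.2). Its paralog gstp2 had at most 6.31 normalized counts in any library, and the sources used here do not say how reads that match both copies were shared out.

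The quinone reductase gene nqo1 (NM_205542) encodes an enzyme that reduces quinones to hydroquinones, and its RNA is a common readout of Nrf2 activity. It measured 9223 normalized counts in 10C, beside 7461 (10L) and 8660.5 (10H), and 2902 in 24C, beside 2220.2 (24L) and 2166 (24H). The 3 libraries of 10 hpf lay above the 3 of 24 hpf, and no exposed library was above the control of its age. Its FC at 10 hpf was 0.809 (0.785 to 0.834) with 5 μg/l and 0.939 (0.911 to 0.968) with 200 μg/l, and at 24 hpf it was 0.765 (0.723 to 0.810) and 0.746 (0.707 to 0.788), with 24L and 24H within counting error of each other. Only the 24H value would be a call with scaling to ef1a reads (log2 FC -1.33). The reads of gstp1 over those of nqo1 came to 0.295 in 10C, 0.250 in 10L and 0.185 in 10H, and to 4.93 in 24C, 4.16 in 24L and 1.40 in 24H, so this ratio was lower in each exposed library than in the control of its age.

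The cytosolic copper-zinc superoxide dismutase gene sod1 (NM_131294) measured 1009 normalized counts in 10C, beside 771 (10L) and 592 (10H), and 2489 in 24C, beside 1219 (24L) and 443 (24H). At both ages it stepped down with dose, and 24H was the lowest of the 6 libraries. Its FC was 0.764 (0.696 to 0.838) in 10L and 0.586 (0.527 to 0.651) in 10H, which were no calls. It fell in 24L to 0.490 (0.456 to 0.525), an interval that also holds values short of 2-fold, and in 24H to 0.178 (0.161 to 0.196).

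The mitochondrial manganese superoxide dismutase gene sod2 (NM_199976) had the largest change of the 9. It measured 317 normalized counts in 10C, beside 197 (10L) and 444 (10H), and 1177 in 24C, beside 445.5 (24L) and 56.9 (24H), the last from 66 reads. At 10 hpf the 5 μg/l library was below the control and the 200 μg/l library above it, while at 24 hpf both were below. Its FC was 0.623 (0.521 to 0.743) in 10L and 1.40 (1.2 to 1.63) in 10H, which were no calls. It fell in 24L to 0.379 (0.338 to 0.424) and in 24H to 0.0483 (0.0371 to 0.0620). Among the 14684 genes with at least 50 reads in 24H or 24C, 0.735% had a lower FC in 24H than sod2. That share was 3.38% for sod1, 4.17% for cat and 4.20% for gstp1.

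Within the libraries the ratio of sod1 to sod2 reads was 3.19 in 10C (2.80 to 3.64), 3.91 in 10L (3.37 to 4.55) and 1.33 in 10H (1.17 to 1.52). It was 2.12 in 24C (1.97 to 2.27), 2.74 in 24L (2.45 to 3.06) and 7.79 in 24H (6.02 to 10.2). The 200 μg/l library therefore had the lowest ratio at 10 hpf and the highest at 24 hpf, and both lay outside the intervals of the other libraries of their age.

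Catalase, the peroxisomal enzyme that splits hydrogen peroxide into water and oxygen, is encoded by cat (NM_130912). The gene measured 130 normalized counts in 10C, beside 101 (10L) and 309 (10H), and 922 in 24C, beside 428 (24L) and 193 (24H). The 10H library stood above the other 2 of 10 hpf, and the exposed libraries of 24 hpf stood below 24C. Its FC was 0.775 (0.596 to 1.01) in 10L, and in 10H it rose to 2.38 (1.92 to 2.95). It fell in 24L to 0.464 (0.412 to 0.522) and in 24H to 0.209 (0.180 to 0.243). Thus cat was the only gene of the 9 called in opposite directions at the 2 ages, and the 10H and 24L intervals each hold values short of 2-fold. An edgeR exact test in which pools were assumed to vary by a coefficient of 0.4 kept none of the calls in 10H and 24L, and it kept all 4 of those in 24H.

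**Figure D3:**
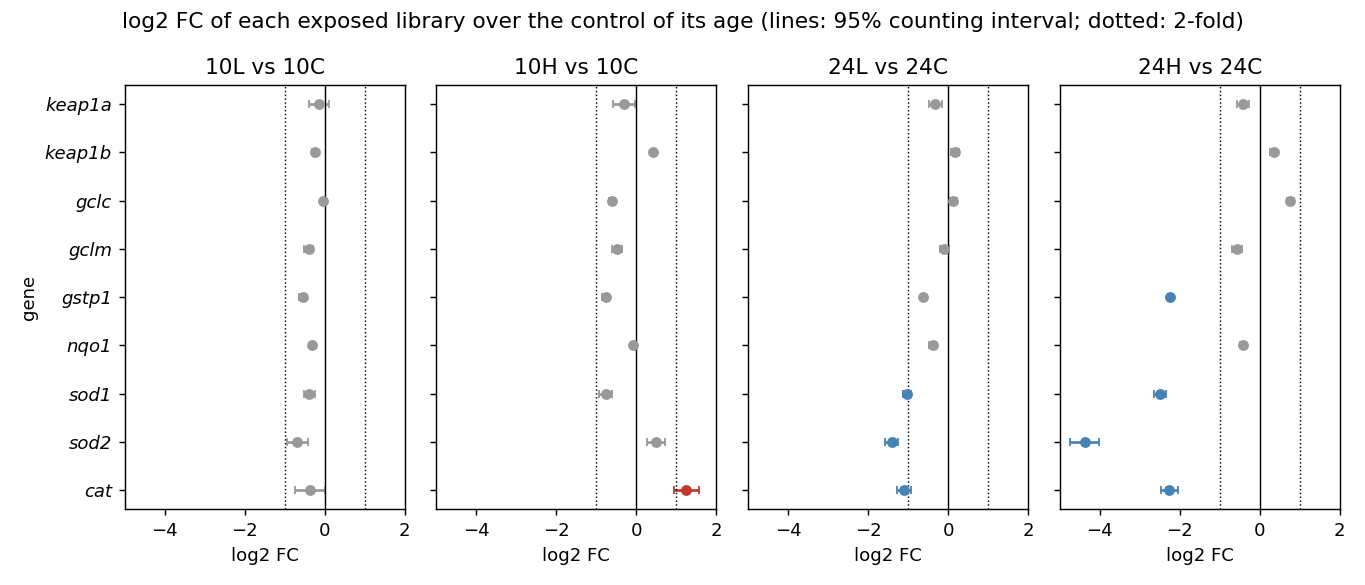
The log2 FC of each exposed library over the control of its age (horizontal axes) for the 9 genes, with lines for the 95% counting interval and dotted lines at 2-fold; red points rose, blue points fell and grey points passed no call. Red is found only at cat in 10H, and blue at sod1, sod2 and cat in 24L and at these and gstp1 in 24H, while the points of gclc and keap1b right of 0 in 24L and 24H lie left of 0 when scaled to ef1a reads.

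Dose against dose gave a similar division. Of the 9 genes 2 rose in 10H compared with 10L, where 16.4% of all genes were called (7.69% as higher and 8.72% as lower): sod2 with an FC of 2.25 (1.91 to 2.66) and cat with 3.06 (2.46 to 3.84). The sod2 call was lost with scaling to ef1a reads (log2 FC 0.88), and both calls were lost in the edgeR test at a coefficient of 0.4. In 24H compared with 24L, with 17.7% of all genes called (6.74% as higher and 11.0% as lower), 4 fell: gstp1 to 0.327 (0.314 to 0.340), sod1 to 0.363 (0.327 to 0.403), sod2 to 0.128 (0.0970 to 0.166) and cat to 0.451 (0.382 to 0.532). The edgeR test left 1 of these 4. In the same comparison gclc had an FC of 1.57 (1.48 to 1.66), under 2-fold, and nqo1 one of 0.975 (0.920 to 1.03).

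The controls show how these genes changed with age, from the end of gastrulation to an embryo with somites, blood and a beating heart. From 10C to 24C 8 of the 9 genes were called, where 46.8% of all genes were. Of these, 5 rose (28.6% of all genes called as higher): cat to an FC of 7.09 (5.87 to 8.63), gstp1 to 5.25 (5.04 to 5.48), sod2 to 3.71 (3.27 to 4.23), keap1a to 2.68 (2.32 to 3.10) and sod1 to 2.47 (2.29 to 2.66). The other 3 fell (18.2% called as lower): keap1b to 0.474 (0.448 to 0.502), gclc to 0.446 (0.420 to 0.473) and nqo1 to 0.315 (0.301 to 0.329). These 3 were no longer called with scaling to ef1a reads, and the edgeR test at a coefficient of 0.4 left 3 of the 8 calls, all of them rises. The remaining gene, gclm, had an FC of 0.857 (0.792 to 0.928), whose log2 value became 0.71 with that scaling. The 4 genes that fell in 24H were among the 5 that rose from 10C to 24C, and since both comparisons use the library 24C, no overlap was tested.

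The library 24H was also set against the younger control, a comparison chosen after the values were seen. The FC of 24H over 10C was 1.11 (1.05 to 1.17) for gstp1, 1.48 (1.19 to 1.86) for cat, 0.755 (0.721 to 0.791) for gclc and 0.603 (0.575 to 0.633) for keap1b. For sod1 and sod2 the 24H level was below that of 10C, with an FC of 0.439 (0.394 to 0.489) and 0.179 (0.135 to 0.235). It was 0.235 (0.225 to 0.245) for nqo1, 0.581 (0.534 to 0.631) for gclm and 2.01 (1.74 to 2.32) for keap1a.

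Stage markers moved in the same libraries. Of the 8 gastrulation markers 7 rose in 24H compared with 24C and none fell, and their summed normalized counts were 8.66 times those of 24C. In 24L 4 rose and 1 fell, with a sum of 1.83 times. Of the 13 markers of blood, muscle, neurons, pigment cells and lens, 12 fell in 24H, with a sum of 0.114 times that of 24C, and 4 fell in 24L, with a sum of 0.651 times. The embryonic globin genes hbae1, hbbe1 and hbbe3 had an FC of 0.0300, 0.0663 and 0.0858 in 24H and of 0.688, 0.643 and 0.653 in 24L. In 10H 2 gastrulation markers rose and 1 tissue marker fell. None of these markers was at 0 reads. Their part in the results for gstp1, sod1, sod2 and cat was not tested.

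A wider list of 119 other antioxidant genes in 9 roles was set beside the 9. Of these, 62 matched the table by name 21 were found under another name with the help of RefSeq, and the 36 others had no match, which left 83. In 10L 3 of the 83 fell and none rose (2.39% of all genes called as lower and 3.65% as higher). With 200 μg/l at this age 4 rose and 6 fell (6.69% and 6.33% of all genes). In 24L 4 rose and 1 fell (3.50% and 4.18% of all genes). In 24H 11 rose and 22 fell (11.9% and 16.4% of all genes). The median log2 FC of those with at least 10 reads on average was -0.10 and -0.19 at 10 hpf and -0.13 and -0.35 at 24 hpf, in order of dose. From 10C to 24C 36 rose and 6 fell (28.6% and 18.2% of all genes), with a median of 0.67 beside 0.07 over all genes. With scaling to ef1a reads the split was another one: none rose and 26 fell in 24L, 3 rose and 50 fell in 24H, and 51 rose and none fell from 10C to 24C. That scaling moved all genes: of the 21217, 198 were called higher and 3593 lower in 24L, and 685 and 8771 in 24H. From 10C to 24C they were 9541 and 1223. The 3 rises of the list left in 24H were chac1, ggt1b and gpx3, with an FC of 6.58, 2.15 and 2.11.

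**Figure D4:**
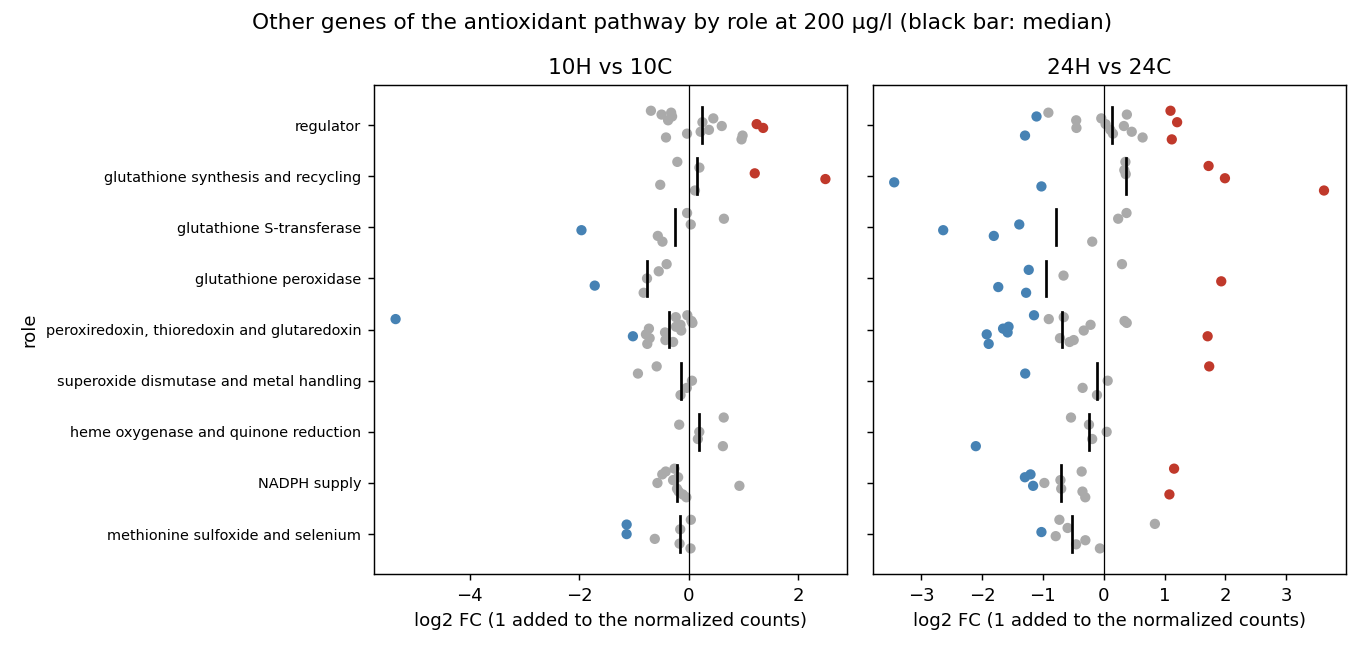
The log2 FC (horizontal axes, 1 added to the normalized counts) of the other antioxidant genes with at least 10 reads on average, in 10H over 10C and in 24H over 24C, by role; red points rose, blue points fell, grey points passed no call and black bars mark medians. In 24H the transferase, peroxidase and peroxiredoxin roles have 3, 3 and 6 blue points among 6, 6 and 16. The peroxidase and peroxiredoxin roles also have 1 red point each, and every other role has at least 1 blue point. Of all genes with at least 10 reads on average, 18.1% fell and 14.1% rose in 24H. The rightmost point is chac1, with an FC of 12.3.

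Among the regulators, nfe2l2b and bach1a had no match and were not measured. The Nrf2 gene nfe2l2a (listed as nfe2l2) passed the call in no exposed library. It measured 232 normalized counts in 10C, beside 195 (10L) and 317 (10H), and 824 in 24C, beside 916 (24L) and 801 (24H). The 3 libraries of 24 hpf stood above those of 10 hpf, and its FC ran from 0.839 in 10L to 1.37 in 10H. Its 10L value turned to 1.01 when scaled to ef1a reads, and its 24L value turned from 1.11 to 0.747, neither a call. The related gene nfe2l1a (listed as nfe2l1), an activator of proteasome genes in mammals, rose in 24H to 2.32 (1.83 to 2.97), from 99.5 to 231 normalized counts, and nfe2l1b had an FC of 0.731 (0.644 to 0.830). Scaled to ef1a reads these were 1.24, no call, and 0.391, a call. The gene bach1b, for a repressor that competes with Nrf2 at its sites, measured 362 normalized counts in 10C, beside 497 (10L) and 708.5 (10H), and 248 in 24C, beside 427 (24L) and 540.3 (24H). It stepped up with dose at both ages, and only in 24H did it pass the call, with an FC of 2.18 (1.87 to 2.54) beside 1.96 (1.72 to 2.23) in 10H. Scaled to ef1a reads its FC was 1.16 in both 24L and 24H, and no call. The small Maf genes mafk and mafga, whose proteins pair with Nrf2 and Bach1 on DNA, rose in 10H to 2.40 (1.68 to 3.46) and 2.62 (1.71 to 4.10) from at most 110 reads, and in 24H their FC was 1.02 and 0.725. The cullin genes cul3a and cul3b, for the ubiquitin ligase scaffold that Keap1 works with, had an FC of 1.11 and 1.38 in 24H, and sqstm1, whose protein binds Keap1, rose to 2.14 (2.01 to 2.28). Scaled to ef1a reads cul3a and cul3b turned to 0.594 and 0.737, mafk to 0.547, mafga was 0.388 and a call, and sqstm1 was 1.15 and no call. The regulators that fell in 24H were nfe2l3, to 0.465, and bach2b, to 0.407.

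The highest FC of the list in 24H was that of chac1, which encodes an enzyme that degrades glutathione and is a known target of the amino acid stress response. It measured 2413 normalized counts in 10C, beside 2113 (10L) and 2615 (10H), and 2798 in 24C, beside 4740.5 (24L) and 34430.5 (24H). The 24H library stood far above the other 5, with an FC of 12.3 (11.8 to 12.8). The amino acid transporter subunit gene slc3a2a rose in 24L to 2.19 (2.11 to 2.27) and in 24H to 3.30 (3.19 to 3.42), which scaling to ef1a reads took to 1.47 and 1.77, no calls. The gene ggt1b, which cleaves extracellular glutathione, rose in 24H to 4.02 (3.12 to 5.23). In the same role ggct fell to 0.491, and ggt1a to 0.0760 (0.0237 to 0.189), on 5 reads in 24H and 53 in 24C. In 10H ggt1a rose to 6.76 (2.36 to 26.6), on 27 reads and 4 in 10C. The glutathione synthetase gene gss, which acts after the ligase, rose in 10H to 2.32 (1.90 to 2.84) and had an FC of 1.29 (1.11 to 1.49) in 24H, which turned to 0.688 scaled to ef1a reads.

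The enzymes that use glutathione or thiols were counted in 24H where they had at least 10 reads on average. Of all genes with that many reads, 18.1% fell and 14.1% rose. Of 6 other glutathione S-transferase genes measured, 3 fell: gstt1a to 0.161, gstm3 to 0.286 and gstt1b to 0.382. Of 6 glutathione peroxidase genes 3 fell, namely gpx1b to 0.298, gpx1a to 0.413 and gpx4b to 0.426, and gpx3 rose to 3.95 (2.42 to 6.74). Of 16 peroxiredoxin, thioredoxin and glutaredoxin genes 6 fell and 1 rose. The lowest were prdx2 with 0.264, glrx with 0.270 and prdx5 with 0.318, and the nucleoredoxin gene nxn rose to 3.27 (1.75 and no call scaled to ef1a reads). In 10H gstt1a fell to 0.247, gpx1b to 0.299 and nxn to 0.494.

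The heme oxygenase gene hmox1a, a common Nrf2 target, had an FC of 0.846 (0.804 to 0.890) in 24H and 0.887 (0.766 to 1.03) in 10H, of which the first became a call scaled to ef1a reads (0.452), while blvrb, for a biliverdin and flavin reductase, fell in 24H to 0.233. The iron exporter gene slc40a1 fell to 0.409. Of 11 genes of NADPH supply, 2 rose in 24H, tkt to 2.23 and h6pd to 2.12 (1.19 and 1.13, no calls, scaled to ef1a reads). Another 3 fell, pgd, pgls and me2, to 0.408, 0.433 and 0.447. Of all genes with at least 10 reads on average, 14.1% rose and 18.1% fell in 24H. The selenoprotein P gene selenop fell in both 200 μg/l libraries, to 0.456 in 10H and 0.492 in 24H. Its relative sepp1b fell in 10H to 0.456, but in 24H its FC was 1.79 (1.71 to 1.88), no call. Scaled to ef1a reads that FC turned to 0.959. As for the 9 genes above, the globin and tissue marker genes were lower in 24H beside these changes, and their part was not tested.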

How the data were processed

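RNA of whole embryos was sequenced on an Illumina HiSeq platform as 1 library for each of 6 groups. Mapping was with Tophat and further annotation with BLAST against the human genome. The authors deposited 1 table, whose signal is a normalized count per gene and library. Zv9 and hg19 stand in the submitters' processing notes, and Zv10 in the methods. The sources used here name neither the read counter nor the use of strand, so a gene and an antisense partner cannot be told apart. All values (100% of 127368, tolerance 0.001) were whole multiples of 1 step per library, which gave back the reads. The methods name TMM, but the steps equalled median-of-ratios size factors of the table and differed from TMM factors by up to 3.32%. Of 21228 entries, 11 that merged many transcripts (13.9% to 15.5% of the reads) were left out.

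FC, intervals and calls (over 2-fold, interval excluding 1) were computed for all 21217 genes in Python 3.11.15 (scipy 1.17.1, pandas 2.3.3, numpy 2.4.6, matplotlib 3.10.9). The calls were also run on simulated reads drawn with counting error only, which cannot show how much pools of embryos vary. A count test was run on the recovered reads (edgeR 4.0.16 in R 4.3.3, exact test), with a biological coefficient of variation assumed to be 0.2 or 0.4. Its calls needed an unadjusted p under 0.05 and an FC over 2-fold. It called 992 or 254 genes in 10L, 2433 or 694 in 10H, 1372 or 352 in 24L and 5732 or 2436 in 24H. Other alternatives were scaling to library totals, ef1a reads or TMM factors (the last chosen after seeing the data), 1 added to the values and a minimum of 10 reads. Thresholds of 1.5-fold and 4-fold and a Benjamini-Hochberg adjusted p of the binomial test were also used. Named were the 9 genes, 9 regulators of the wider list whatever their values, and, of that list, up to 3 highest and 3 lowest per role called in 10H or 24H on 50 or more reads in the higher library. The genes gstp2 and sod3b were named outside this rule, after their values were seen. The members and lists were chosen with earlier results of these data known. Gene names were matched with RefSeq tables of assembly GRCz12tu, whose coordinates were not used. With 1 library per group, intervals cover counting error only.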

Additional observations from a re-analysis of the deposited data

Results flagged for a closer look

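For 5 of the 9 genes the log2 FC at 200 μg/l differed between the 2 ages by over 2-fold, with an interval of the difference (normal approximation of the read counts, counting error only) that excluded 0. No library had a replicate, so these are differences between 4 libraries, and no outlier within a group could be looked for. The share of all genes that meet the same rule was not computed, so the 5 cannot be set against it. The difference of 24 hpf minus 10 hpf on the log2 scale was -4.86 for sod2 (-5.27 to -4.44), from 0.49 in 10H to -4.37 in 24H. For cat it was -3.50 (-3.87 to -3.13), from 1.25 to -2.26, and cat alone was called at both ages, up and then down. It was -1.72 for sod1 (-1.92 to -1.52) and -1.48 for gstp1 (-1.58 to -1.37), which were below control at both ages. For gclc it was 1.36 (1.25 to 1.48), from -0.60 to 0.76, and scaled to ef1a reads, where both values are below 0, it was 0.49 (0.38 to 0.60) and under 2-fold. With that scaling the other 4 stayed over 2-fold, and nqo1, at -0.33 in the deposited scaling, came to -1.21. At 5 μg/l the differences of these 5 genes in the deposited scaling were smaller, from -0.74 for cat to 0.15 for gclc. Scaled to ef1a reads they were over 2-fold for cat (-1.58), sod2 (-1.55) and sod1 (-1.48), and so was keap1a (-1.01). That of gstp1 was -0.92, and that of gclc was -0.69, larger in size than its 0.49 at 200 μg/l.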

How the results depend on the processing

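No paired analysis was possible because each group was 1 library; for the same reason none could be left out. The median-of-ratios alternative equals the deposited scaling. Scaling to library totals or TMM factors, 1 added, a minimum of 10 reads and adjusted p changed no count of called genes among the 9. The minimum of 10 reads could not, because each of the 9 had at least 66 reads in every library. For the other alternatives, a count is listed only where it changed by more than 1.5 times, or from or to 0. Smaller changes are left out, such as 4 of the 9 in 24L (3 before) with ef1a scaling and at 1.5-fold. Scaling to ef1a reads gave 7 called genes in 24H (4 before), 5 from 10C to 24C (8 before) and 1 in 10H over 10L (2 before), and 26 in 24L (5 before) and 53 in 24H (33 before) of the wider list. A 1.5-fold threshold gave 1 called gene of the 9 in 10L and 4 in 10H, and 9, 26 and 23 of the list in 10L, 10H and 24L, 27 in 10H over 10L and 29 in 24H over 24L. A 4-fold threshold left 0 of the 9 in 10H, 24L and 10H over 10L, 1 in 24H over 24L and 2 from 10C to 24C, and of the list 1 in 10L, 3 in 10H, 0 in 24L, 5 in 24H, 21 from 10C to 24C, 4 in 10H over 10L and 3 in 24H over 24L. The edgeR exact test at a coefficient of variation of 0.4 left 0 of the 9 in 10H, 24L and 10H over 10L, 1 in 24H over 24L and 3 from 10C to 24C, and of the list 1 in 10L, 3 in 10H, 0 in 24L, 12 in 24H and 4 in each of the dose comparisons. At 0.2 it left 3 of the list in 24L. The share of all genes called at 1.5-fold or 4-fold was not computed. The counts at those 2 thresholds therefore cannot be set against it.

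The direction turned for 12 results of single genes, 10 of them with scaling to ef1a reads: the log2 FC became 0.23 for gclc, 0.12 for keap1a and 0.0073 for keap1b in 10L, -0.46 for gclc and -0.40 for keap1b in 24L, -0.14 for gclc and -0.56 for keap1b in 24H, 0.71 for gclm from 10C to 24C, -0.074 for nqo1 in 10H over 10L and -0.16 for keap1b in 24H over 24L. The other 2 were gclc in 10L, with 0.10 scaled to library totals and 0.013 to TMM factors. Of the other results of single genes under an alternative, 636 kept their direction and side of the threshold, 33 lost a call and 12 gained one. Part of the 636 was fixed in advance, so their number does not measure robustness. Median-of-ratios scaling and the minimum of 10 reads could change no result of these genes. Both fold thresholds, adjusted p and the edgeR tests used the same log2 FC, so they could change a call but turn no direction. The median of all genes moved by 0.26 in 10L, -0.57 in 24L, -0.90 in 24H, 0.93 from 10C to 24C, -0.29 in 10H over 10L and -0.33 in 24H over 24L with ef1a scaling, and by 0.13 in 10L and -0.15 in 10H over 10L with library totals. With ef1a scaling the genes called higher and lower numbered 1442 and 283 in 10L (775 and 507 before), 198 and 3593 in 24L (742 and 887), 685 and 8771 in 24H (2526 and 3486), 9541 and 1223 from 10C to 24C (6070 and 3853), 992 and 2753 in 10H over 10L (1631 and 1850) and 741 and 3716 in 24H over 24L (1430 and 2335). With library totals they were 1053 and 358 in 10L and 1202 and 2322 in 10H over 10L. Counting error was widest for sod2 in 24H, with 66 reads.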

Other observations

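The genes most like each of the 9 were the 3 with the smallest Euclidean distance over 5 log2 FC values (10L, 10H, 24L and 24H over control and 24C over 10C), among 13740 genes. The closest to keap1b were yy1b, pcbp2 and dbf4, at distances of 0.100, 0.113 and 0.115, and to gclm hsd11b3a, mrpl27 and yipf6, from 0.109. For nqo1 they were ppwd1, g3bp1 and tbce (from 0.211), for gclc chst14, st7l and LOC100537398 (from 0.232), and for keap1a ass1, morn2 and ppa1 (from 0.255). The genes that fell in 24H had more distant ones. Those of gstp1 were lrrc4, calm3a and cox7a2 (from 0.373), those of sod1 cradd, mif and LOC100535626 (from 0.407), those of cat LOC796761, LOC793121 and dync1i1 (from 0.709), and those of sod2 LOC100331996, LOC100538250 and LOC558816 (from 0.980).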
